A study of Gallus gallus with 26 samples.

Results

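The genes described here are the RUNX transcription factors and a small set of genes that start or hold back chondrocyte hypertrophy, measured by RNA-seq in the joint interzone and the neighbouring phalange of the chick embryo. They were picked by symbol, and 10 were listed: *RUNX1*, *RUNX2*, *RUNX3*, *CBFB*, *MEF2C*, *PTHLH*, *PTH1R*, *COL10A1*, *DLX5* and *DLX6*. Of these, 9 had a row among the 15984 genes of the expression table, and no row carried the symbol *PTH1R*. A total of 6 were expressed highly enough for the main test (limma), at a mean normalized count of at least 10 over all libraries. Both groups were tissue of White Leghorn chick embryos incubated for 7.5 days, to Hamburger-Hamilton stage 32 (HH32), with no treatment or genetic change. The interzone group (n = 3) was the strip of the future joint microdissected from digit 3 of the hindlimb, and the phalange group (n = 3) was the proximal part of the cartilage element next to it. The study's methods call the libraries of a tissue biological replicates, but the sources used here do not say how many embryos went into each.

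In a growing cartilage element, chondrocytes divide, stop dividing and enlarge into hypertrophic cells before bone replaces them, whereas the flattened cells of the interzone leave this path and go on to form the joint. RUNX proteins bind DNA together with CBFB, a partner that binds none by itself. In the mouse, RUNX2 and RUNX3 drive chondrocytes into hypertrophy, MEF2C and DLX5 act in the same direction, and RUNX1 is best known from blood formation. *PTHLH* encodes parathyroid hormone-related protein (PTHrP), a secreted signal from the ends of the elements that keeps chondrocytes dividing through the receptor PTH1R. *COL10A1*, encoding collagen X, is the classical marker of hypertrophic chondrocytes and a target of RUNX2.

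The libraries held 12431285 to 14347148 reads on genes. Of genes listed as markers of the dissected tissues, the interzone markers summed to 30461 to 108535 normalized counts in interzone and 12557 to 18579 in phalange libraries (9 genes), and the chondrocyte markers to 10843 to 54097 in interzone and 50533 to 85366 in phalange (10 genes). Other cells were also present. Skeletal muscle markers summed to 2873 to 11719 in interzone and 670 to 4521 in phalange (14 genes). Red blood cell markers ranged from 1483 to 51152 in interzone and from 700 to 39598 in phalange (8 genes), with the lowest sum of each tissue in its library 2. Transcripts of 18 W-linked genes summed to about 30 in interzone 1 and phalange 1 (32.2 and 29.9) and to between 6626 and 8393 in the other 4 libraries, so these 2 libraries carried almost no W-linked reads. The part of blood, muscle and W-linked differences in the results below was not tested as a cause. For some of the genes, values without the number 2 libraries or split by W-linked reads are given beside the results. In bulk tissue, fewer cells of a type and less RNA per cell cannot be told apart.

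*RUNX2* was the clearest difference between the tissues. Its normalized counts (reads divided by the size factor of the library) were 729, 631 and 653 in interzone and 2980, 4343 and 4234 in phalange libraries. Every phalange library lay far above every interzone library, and the lowest phalange value was 4.09 times the highest interzone value. The interzone mean was 671 ± 51.6 and the phalange mean was 3852 ± 757 (SD, n = 3), or 5.74-fold higher. The log2 fold change of interzone over phalange (log2FC, on the scale of log2(normalized count + 1)) was −2.50 (SE 0.22), with an adjusted p of 0.0225 by limma over 11928 genes. *RUNX2* had the smallest p of all of them (1.89e-06). An exact two-sided permutation test over the libraries gave p = 0.1, the smallest value that 3 against 3 can give.

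Few genes passed this test in either direction. A gene was called where limma's adjusted p was under 0.05 and the log2FC beyond 0.5 in size. In phalange, 3 genes (0.0252% of those tested) were called higher, among them *RUNX2* as 1 of the 6 members tested. In interzone, limma called 0 of 11928 genes (0%) and none of the members. Over both directions, 771 of the 11928 genes had an unadjusted p under 0.05, and 2 of these were members, *RUNX2* and *PTHLH*. The quasi-likelihood test of edgeR on reads recovered from the values called 1 gene higher in phalange, which was *RUNX2* (adjusted p = 0.0429), and 0 higher in interzone. On the same reads, DESeq2 gave 116 calls for interzone (0.906%) and 61 for phalange (0.477%), and of the members it called *PTHLH* in interzone and *RUNX2* in phalange (adjusted p = 4.53e-23). Across the 6 members tested the median log2FC was −0.42, beside −0.00076 over all genes tested.

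**Figure D1:**
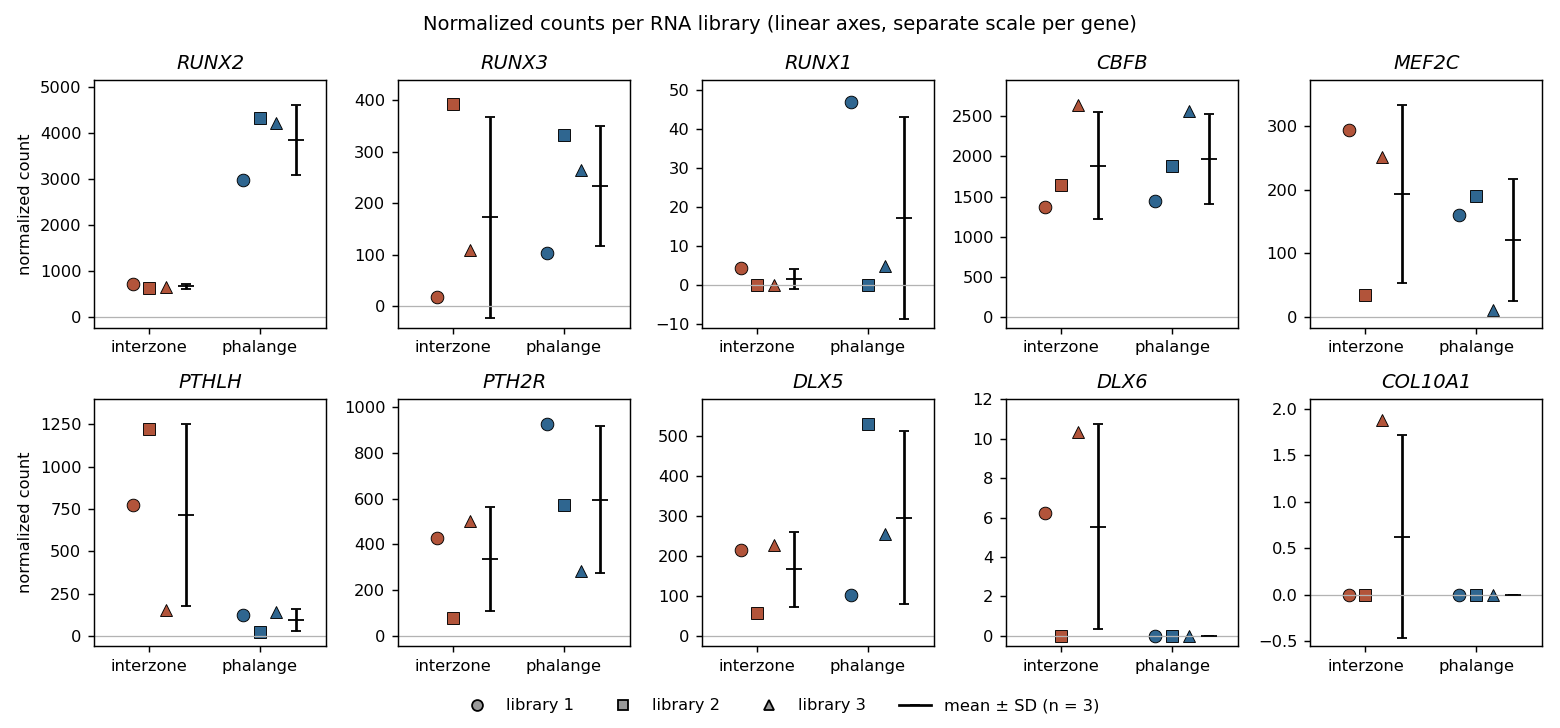
Normalized count of each gene in the 3 interzone (orange) and 3 phalange (blue) libraries, on linear axes that differ between genes; the marker shape gives the library number, and the bar at the right of each group is the mean ± SD (n = 3). *RUNX2* separates the tissues widely (631 to 729 against 2980 to 4343), *PTHLH* narrowly in the other direction, and *CBFB*, *MEF2C*, *RUNX3*, *DLX5* and *PTH2R* overlap.

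*RUNX2* had a spread between libraries below the median and a difference that was large for genes at its level. Its residual SD on the log2 scale was 0.23, beside a median of 0.59 over all tested genes. Among 2151 genes with a mean normalized count of 1000 to 5000, the median was 0.29, and 660 had a smaller residual SD than *RUNX2*, but only 8 had a larger absolute log2FC. Over all expression levels, 614 tested genes had a larger absolute log2FC than *RUNX2*. The coefficient of variation of *RUNX2* was 7.69% in interzone and 19.7% in phalange. The size of the difference hardly moved when 1 library was left out (log2FC −2.68 to −2.41). With 5 libraries, however, limma kept the call only without phalange 1 (adjusted p = 0.0338). It missed the call in the other 5 cases, with adjusted p of 0.0590 to 0.230. In these 5 cases limma called 0 of all tested genes in either direction. By DESeq2, *RUNX2* stayed called whichever library was left out (adjusted p = 4.61e-31 to 1.12e-13). Without the library of each tissue lowest in red blood cell markers, the log2FC was −2.36 (adjusted p = 0.414 by limma). That fit also called 0 of all tested genes in either direction. For *RUNX2*, the log2FC was also compared by W-linked reads. Between the 2 libraries without W-linked reads it was −2.03, and among the 4 with them −2.74. With a term for this split in the limma fit, *RUNX2* stayed called (adjusted p = 0.0408). With the replicate number as a block it was not called (adjusted p = 0.0674 by limma).

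Of the other RUNX genes, *RUNX3* did not pass the test and *RUNX1* was too low to be tested by limma. DESeq2, run without that filter, gave *RUNX1* a log2FC of −3.52 (SE 2.85, adjusted p = 0.973). *RUNX3* had 17.9, 392 and 108 normalized counts in interzone and 103.8, 331 and 265 in phalange. The interzone values spread over a wider range than the phalange values and enclosed all of them, and the log2FC was −1.17 (SE 1.02, adjusted p = 0.940 by limma; exact permutation p = 0.7). The difference rested on interzone 1, without which it was −0.02, and it was −2.21 without interzone 2. Without both number 2 libraries it was −1.88. Between the 2 libraries without W-linked reads it was −2.47, and among the 4 with them −0.52. *RUNX1* was near the limit of detection. It had 4.47 normalized counts in interzone 1 and none in interzone 2 and 3, and 46.9, 0 and 4.79 in phalange 1 to 3. Most of its reads (47 of 57) were thus in phalange 1, where it made up 3.74 reads for every 1000000 reads on genes (RPM, exact 95% interval 2.75 to 4.97, counting error only). In that library white blood cell markers (11 genes) and endothelial markers (9 genes) had their highest sums, 3268 and 1684 normalized counts, beside 951 to 2554 and 341 to 829 in the other 5 libraries. Phalange 2, with a white blood cell sum of 2530, had 0 *RUNX1* reads. Whether such cells carried the *RUNX1* reads was not tested. The 0 reads in phalange 2 allow up to 0.241 RPM.

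Of all reads on the 3 RUNX genes, *RUNX2* took 97.0%, 61.7% and 85.8% in interzone 1 to 3 and 95.2%, 92.9% and 94.0% in phalange 1 to 3. Only in interzone 2 did *RUNX3* come close, where the exact 95% interval of the *RUNX2* share was 58.5% to 64.7%. The mean share was 81.5% ± 18.1 in interzone and 94.0% ± 1.14 in phalange (SD, n = 3). The difference was −12.5 percentage points (exact permutation p = 0.4), smaller in size than the SD of interzone and larger than that of phalange. It was −2.63 points without interzone 2 and −20.3 points without interzone 1 (exact permutation p = 0.8 and 0.1). These shares are of reads and not per length, so they compare libraries and do not rank the 3 genes by transcript number.

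*CBFB*, the partner of all RUNX proteins, had close means in both tissues. It had 1373, 1648 and 2635 normalized counts in interzone and 1451, 1884 and 2559 in phalange. The libraries of the tissues interleaved, with means of 1885 ± 664 and 1964 ± 559 (SD, n = 3). The log2FC was −0.08 (SE 0.31, adjusted p = 1.00 by limma, exact permutation p = 0.8), and its sign changed when 1 library was left out (−0.35 to 0.13). In read ratios within each library, which do not depend on the size factors, log2 *RUNX2*/*CBFB* was −0.91, −1.38 and −2.01 in interzone and 1.04, 1.20 and 0.73 in phalange. The groups were apart in this ratio, with a mean of −1.44 ± 0.55 in interzone and 0.99 ± 0.24 in phalange (SD, n = 3). This followed from the *RUNX2* values, whose gap of 4.09 times exceeded the whole range of *CBFB* (1373 to 2635). The ratio is therefore no separate support for the *RUNX2* difference. The difference of −2.43 reached the smallest p the exact permutation test can give (p = 0.1), and 0.25 after adjustment over the 5 ratios compared.

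**Figure D2:**
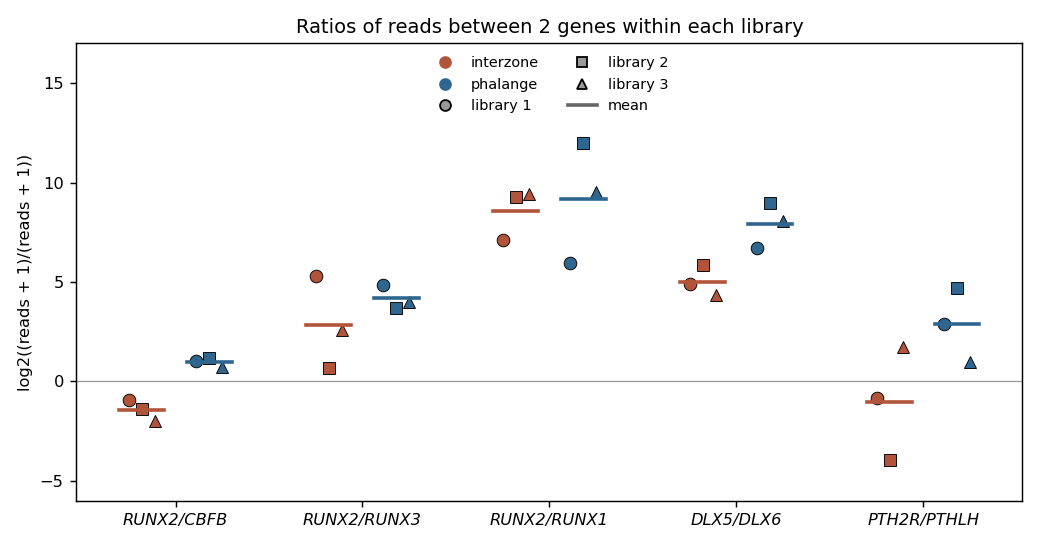
Log2 ratio of the reads of 2 genes in each library, with 1 read added to both; points are libraries (orange interzone, blue phalange, shape for the library number) and bars are means of 3. *RUNX2*/*CBFB* lies below 0 in all 3 interzone and above 0 in all 3 phalange libraries; *RUNX2*/*RUNX3* and *RUNX2*/*RUNX1* overlap between the tissues, and *DLX5*/*DLX6* rests on 0 reads of *DLX6* in 4 libraries.

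The ratio of *RUNX2* to *RUNX3* overlapped between the tissues. Its log2 value was 5.28, 0.68 and 2.58 in interzone and 4.83, 3.71 and 3.99 in phalange, and the means differed by −1.33 (exact permutation p = 0.5, adjusted over the 5 ratios 0.625). Single libraries moved this difference, to −0.24 without interzone 2 and to −2.54 without interzone 1. For *RUNX2*/*RUNX1* the means of 8.60 and 9.17 differed by −0.57 (exact permutation p = 0.8), a value whose sign depended on the count added to the reads and on single libraries. It was 0.53 with 0.1 reads added, 0.18 without interzone 1 and 0.85 without phalange 2.

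*PTHLH* was the only tested member that was higher in all interzone libraries. Its normalized counts were 773, 1220 and 152 in interzone and 123, 21.0 and 143 in phalange. Interzone 1 and 2 were high, but interzone 3 was only 1.06 times the highest phalange library, so the groups were barely apart. The means of 715 ± 537 and 95.5 ± 65.3 (SD, n = 3) gave a 7.49-fold difference, larger than that of *RUNX2*, with a log2FC of 2.84 (SE 0.93). By limma it did not pass (p = 0.0141, adjusted p = 0.595), nor by edgeR (adjusted p = 0.673), and the exact permutation p was 0.1. By DESeq2 it did (log2FC 2.90, adjusted p = 0.0310). This call held without interzone 3, phalange 1 or phalange 3 (adjusted p = 0.000594, 0.0415 and 0.0301 by DESeq2) and was lost without interzone 1, interzone 2 or phalange 2 (adjusted p = 0.163, 0.369 and 0.0983). Without both libraries lowest in red blood cell markers, which were also its highest and its lowest, the log2FC by limma was 1.37. It was 2.64 between the libraries without W-linked reads and 2.94 among those with them. Summed interzone markers were 50641, 108535 and 30461 in interzone 1 to 3, the same order as *PTHLH*. In phalange 1 to 3 they were 12557, 12870.5 and 18579, and the order differed from that of *PTHLH*. The part of interzone content in the *PTHLH* values was not tested.

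A pattern with no overlap between the tissues was not rare. All 3 interzone libraries were above all 3 phalange libraries for 699 of the 11928 tested genes (5.86%), and all phalange libraries were above all interzone libraries for 609 (5.11%). Of the 6 members tested, *PTHLH* was in the first group and *RUNX2* in the second.

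*PTH1R* was absent by that symbol. A gene named *PTH2R* in the expression table is listed with *PTH1R* as a synonym in the RefSeq table of another chicken assembly, GRCg7b. Which parathyroid hormone receptor this row counts is not settled by the symbol, and it is reported under its own name. It had 428, 77.4 and 502 normalized counts in interzone and 925, 574 and 284 in phalange. The ranges overlapped, and the log2FC was −1.06 (SE 0.73, adjusted p = 0.922 by limma). Within libraries, log2 *PTH2R*/*PTHLH* was −0.85, −3.96 and 1.72 in interzone and 2.90, 4.71 and 0.99 in phalange. Reads of *PTH2R* were below those of *PTHLH* in interzone 1 and 2 and above them in the other 4 libraries. Reads are not per length, so the sign does not rank the 2 genes by transcript number. The means of −1.03 ± 2.84 and 2.87 ± 1.86 (SD, n = 3) differed by −3.90 (exact permutation p = 0.2, 0.333 over the 5 ratios), and by −2.43 without interzone 2 and −5.27 without interzone 3 (exact permutation p = 0.3 and 0.1).

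**Figure D3:**
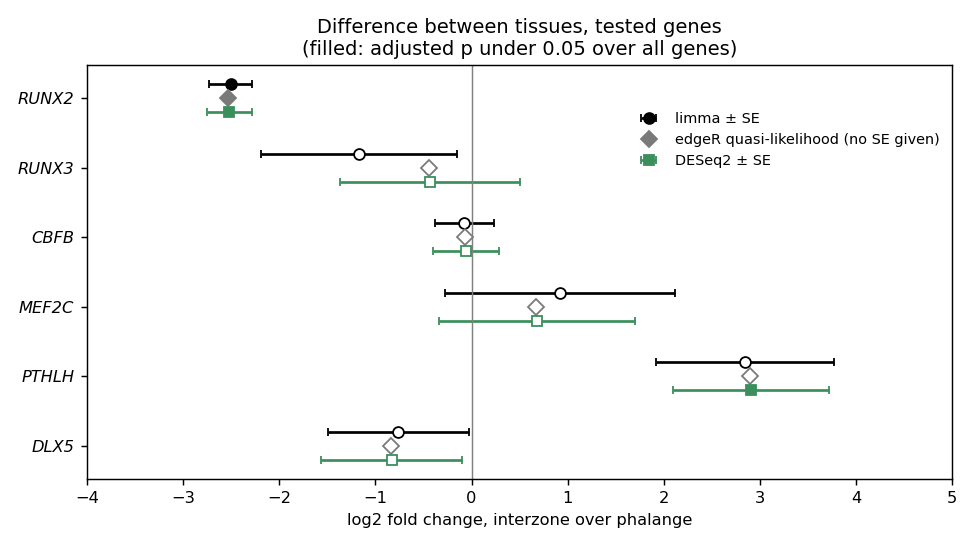
Log2 fold change of interzone over phalange for the 6 tested genes by limma and DESeq2 (± SE) and by edgeR; a filled symbol marks an adjusted p under 0.05 over all genes of that test. *RUNX2* is filled for all 3 tools at about −2.5, *PTHLH* for DESeq2 alone (2.90), and no symbol of *RUNX3*, *CBFB*, *MEF2C* or *DLX5* is filled.

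*MEF2C*, a factor also used by muscle and endothelium, varied widely within each tissue. It had 294, 34.1 and 251 normalized counts in interzone and 160, 191 and 11.5 in phalange. The lowest value of all was in phalange 3, and the second lowest in interzone 2. The log2FC was 0.92 (SE 1.19, adjusted p = 0.970 by limma) and turned to −0.35 without phalange 3, while it was 2.61 without both number 2 libraries. Summed skeletal muscle markers were lowest in these same libraries within each tissue, at 670 in phalange 3 and 2873 in interzone 2, although phalange 2 had a similar sum (770) and 191 normalized counts of *MEF2C*. Summed endothelial markers were 768, 341 and 823 in interzone 1 to 3 and 1684, 388 and 829 in phalange 1 to 3. In interzone their lowest sum was in the library lowest in *MEF2C*. In phalange it was in phalange 2, the library highest in *MEF2C*. The log2FC of *MEF2C* was 0.88 between the libraries without W-linked reads and 0.94 among those with them. The part of muscle or endothelium in *MEF2C* was not tested.

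*DLX5* and *DLX6* are homeobox genes that lie next to each other on chromosome 2 of GRCg7b, and in the mouse they act together in cartilage and bone. Of the pair, *DLX5* was detected in every library, at 214, 57.8 and 227 normalized counts in interzone and 103, 529 and 254 in phalange. The tissues overlapped (log2FC −0.76, SE 0.73, adjusted p = 0.958 by limma). Library 2 held the lowest interzone and the highest phalange value, and without both of these libraries the log2FC was 0.44. It was 1.05 between the 2 libraries without W-linked reads and −1.67 among the 4 with them. *DLX6* had 7, 0 and 11 reads in interzone 1 to 3 and 0 reads in every phalange library. For these zeros the upper limits were 0.239, 0.241 and 0.217 RPM in phalange 1 to 3 and 0.222 RPM in interzone 2. The log2 ratio *DLX5*/*DLX6* was higher in every phalange library (6.70, 8.98 and 8.06) than in interzone (4.91, 5.83 and 4.33), with a difference of −2.89 (exact permutation p = 0.1, 0.25 over the 5 ratios). With 0 reads of *DLX6* in 4 libraries, its size depended on the count added to the reads. It was −5.01 with 0.1 reads added and −1.26 with 10 reads added (exact permutation p = 0.3).

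*COL10A1* was at the limit of detection in both tissues. No phalange library had a read, which allows up to 0.239, 0.241 and 0.217 RPM in phalange 1 to 3. Interzone 3 had 2 reads (0.148 RPM, exact 95% interval 0.0179 to 0.534), and interzone 1 and 2 had 0, which allows 0.209 and 0.222 RPM. For the counts of 0 in both tissues, exact 95% intervals reached further, with upper ends from 0.257 RPM (interzone 1) to 0.297 RPM (phalange 2). The 2980 to 4343 normalized counts of *RUNX2* in phalange were therefore measured in the same libraries in which *COL10A1* was not detectable at this depth.

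The genes whose pattern over the 6 libraries was closest to *RUNX2* were *SNAI1*, *C1H2ORF40*, *HAPLN1*, *VSTM4* and *COL2A1*. Likeness was the mean absolute difference between log2 values centred on the mean of each gene, and it was 0.23, 0.28, 0.31, 0.33 and 0.34 for these 5, beside a median of 1.31 over the 10171 genes compared. *SNAI1*, a zinc finger repressor, had 2037, 1591 and 2668 normalized counts in interzone and 8057, 8930 and 9587 in phalange. *C1H2ORF40* had 1279, 1330 and 1206 in interzone and 3917, 5966 and 4960 in phalange. Together with *RUNX2*, these were the 3 genes that limma called higher in phalange (adjusted p = 0.0335 for both). *COL2A1*, encoding the main cartilage collagen, had 525, 885 and 292 in interzone and 2417, 3083 and 2948 in phalange. *HAPLN1*, the link protein of cartilage matrix, had 405 to 580 in interzone and 1459 to 3023 in phalange. The likeness is over 6 libraries that differ by tissue, and it describes only how far the levels of each gene lay from its own mean.

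**Figure D4:**
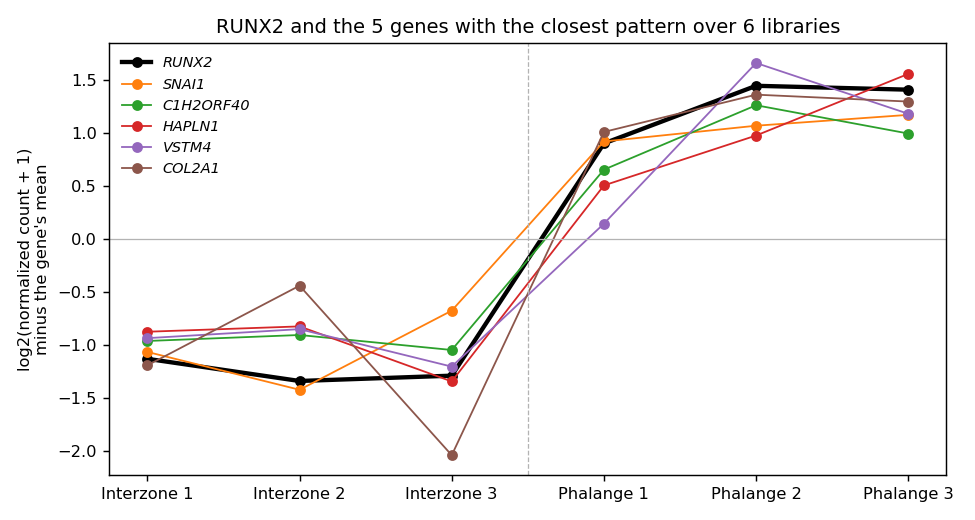
Log2(normalized count + 1) minus the mean of each gene, in the 6 libraries, for *RUNX2* (black) and the 5 genes closest to it; lines join the libraries of a gene for reading only, and the dashed line parts the tissues. All 6 genes lie below 0 in each interzone library and above 0 in each phalange library; *COL2A1* drops to −2.04 in interzone 3, where *RUNX2* is at −1.29.

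The proteins that work with RUNX factors were represented by a list of 21 partners and co-regulators, of which 19 were in the table and 17 were tested. Limma called 0 of them in either direction, beside 3 of all 11928 genes tested. An unadjusted p under 0.05 was found for 2, beside 771 of all genes, and neither edgeR nor DESeq2 called any. With so few calls over all genes, 0 calls do not set this list or the lists below apart. The median log2FC was 0.19. *TLE1*, a Groucho-type co-repressor, had 260, 168 and 388 normalized counts in interzone and 81.9, 29.4 and 123 in phalange. All interzone libraries were higher (log2FC 1.93, SE 0.64, adjusted p = 0.595 by limma). *TWIST1*, a basic helix-loop-helix factor that inhibits RUNX2 in the mouse, had 195, 90.8 and 191 in interzone and 378, 530 and 261 in phalange. Here every phalange library was higher (log2FC −1.31, SE 0.46, adjusted p = 0.632 by limma).

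The PTHrP and hedgehog loop, in which hedgehog signal from maturing chondrocytes keeps *PTHLH* on, was represented by 18 tested genes of 21 listed. Limma called 0 in either direction, and neither edgeR nor DESeq2 called any. An unadjusted p under 0.05 was found for 4, beside 771 of all 11928 genes tested. The median log2FC was −0.05. *GLI3*, a hedgehog transcription factor that mostly represses, had 3278, 2586 and 2579 normalized counts in interzone and 1777, 889 and 1649 in phalange. All interzone libraries were higher (log2FC 1.02, SE 0.29, adjusted p = 0.511 by limma). *NKX3-2*, which holds back chondrocyte maturation in chick, had 139, 182 and 325 in interzone and 320, 1052 and 631 in phalange. The tissues just overlapped (log2FC −1.56, SE 0.51, adjusted p = 0.595 by limma). *GLI2* and *GLI1* were the remaining genes with an unadjusted p under 0.05. *GLI2* had 3222, 4009 and 3510 in interzone and 1924, 2489 and 2652 in phalange. All interzone libraries were higher (log2FC 0.61, adjusted p = 0.595 by limma). *GLI1* had 57.2, 128 and 33.9 in interzone and 176, 273 and 151 in phalange. For it all phalange libraries were higher (log2FC −1.60, adjusted p = 0.698 by limma). No row carried the symbol *IHH*, of the hedgehog ligand of cartilage, so the ligand was not analysed here.

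The MEF2 factors and the class II histone deacetylases that bind them were represented, together with *MYOCD*, by 6 tested genes of 8 listed. They had 0 calls by limma, edgeR or DESeq2 and a median log2FC of −0.02. An unadjusted p under 0.05 was found for 0 of them, beside 771 of all 11928 genes tested. *HDAC4*, which represses hypertrophy in the mouse, had 805, 372 and 704 normalized counts in interzone and 1112, 598 and 746 in phalange, with overlap (log2FC −0.41, SE 0.37, adjusted p = 0.946 by limma). *MYOCD*, a cofactor of smooth and cardiac muscle genes, had 23.2, 0 and 50.8 in interzone and 9.98, 0 and 17.2 in phalange (log2FC 0.88, SE 1.91, adjusted p = 0.990 by limma).

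Of 6 other DLX and MSX homeobox genes listed, 4 were in the table and 2 were tested, and none was called by limma, edgeR or DESeq2. *MSX1* had 7919, 9265 and 6272 normalized counts in interzone and 10786, 15313 and 10782 in phalange. Every phalange library was higher, by a modest amount (log2FC −0.65, SE 0.21, unadjusted p = 0.0146, adjusted p = 0.595 by limma). *MSX2* had 1107, 273 and 4195 in interzone and 709, 306 and 203 in phalange, and its log2FC of 1.61 (SE 0.88, adjusted p = 0.876 by limma) went with the high value of interzone 3.

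None of the tested genes of hypertrophic chondrocytes and bone was called. Of 19 listed, 12 were in the table and 10 were tested, with 0 calls by limma, edgeR or DESeq2. An unadjusted p under 0.05 was found for 0 of them, beside 771 of all 11928 genes tested. The median log2FC was 0.19, and for all 10 genes the libraries of the tissues overlapped. Over all 11928 tested genes, only 699 (interzone higher) and 609 (phalange higher) did not overlap. *SPARC*, a matrix protein of bone and many connective tissues, had 45898, 42222 and 31731 normalized counts in interzone and 29271, 29458 and 37261 in phalange (log2FC 0.31, SE 0.19, adjusted p = 0.897 by limma). *PANX3*, a channel protein of prehypertrophic chondrocytes and osteoblasts in the mouse, had 91.1, 12.4 and 25.4 in interzone and 76.9, 58.7 and 82.3 in phalange (log2FC −1.19, SE 0.85, adjusted p = 0.926 by limma). *MMP13*, a collagenase of late hypertrophic cartilage and a RUNX2 target in the mouse, was singled out after its values were seen. It had 17.9 normalized counts in interzone 1 and 0 in the other 5 libraries. *FOXA2* was also near 0, at 2.99 or less, but other genes of the list were clearly detected. *SPP1* and *IFITM5*, also picked after their values were seen, are examples. *SPP1* had 617, 299 and 166 in interzone and 305, 205 and 305 in phalange. *IFITM5* had 96.5, 16.5 and 344 in interzone and 124, 99.6 and 24.9 in phalange.

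**Figure D5:**
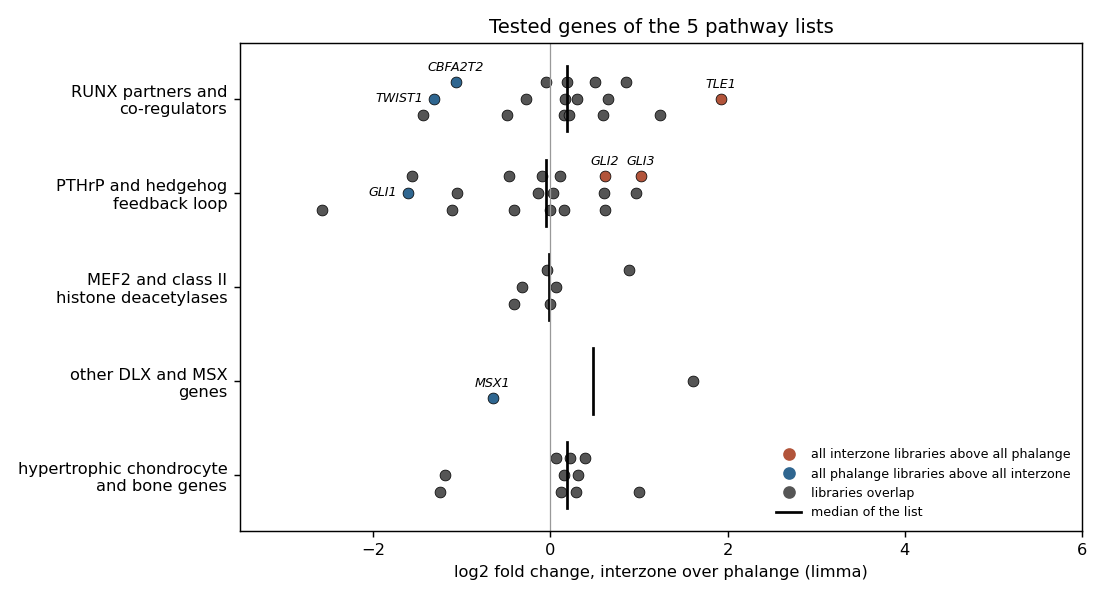
Log2 fold change (limma, interzone over phalange) of each tested gene in the 5 lists; orange and blue points are genes whose libraries do not overlap between the tissues, grey points overlap, and vertical bars are list medians. The medians lie close to 0 for 4 lists (−0.05 to 0.19), the DLX and MSX list holds only 2 genes, and no point was called by limma.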

How the data were processed

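RNA-seq of 3 interzone and 3 phalange libraries was used; the histone ChIP-seq libraries were not used here. RNA was copied from poly(A) tails by Smart-seq2 and amplified by PCR, and reads carry no molecular identifiers. The authors trimmed reads with Trimmomatic, mapped them with STAR to *Gallus gallus* 6.0, counted them with featureCounts and deposited counts divided by DESeq2 size factors, a signal that is not whole numbers. The tools are named in the submitters' processing notes. With no strand information from the kit, overlapping antisense transcripts cannot be told apart. Reads were recovered by dividing by the value of 1 read in each library, and 100% of values came out whole within 0.001.

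With limma 3.58.1 and R 4.3.3, log2(normalized count + 1) was fitted with a trend. The 11928 genes tested averaged 10 or more. Calls needed a Benjamini-Hochberg adjusted p under 0.05 and an absolute log2FC above 0.5. A fold change on this scale understates the change of low genes. Recovered reads were also tested with edgeR 4.0.16 and DESeq2 1.42.0, the latter with the deposited size factors and with adjusted p left missing where it gave none. The limma, edgeR and DESeq2 fits were tried on simulated counts, and the exact permutation test on a small made-up set of values. Exact intervals are Clopper-Pearson at 95%. A count of 0 allows 3 reads, a limit that lies below the upper end of such an interval for 0 reads. Both cover counting error only. Of the genes, 3958 had no symbol.

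The genes and lists were chosen with earlier results of these data known. All listed genes in the table were named, with, in each pathway list, genes called by limma or otherwise the 2 with the smallest p, and the 5 genes with a symbol closest to *RUNX2*. *GLI2* and *GLI1* were named in addition. Other pseudocounts, filters, scalings and tools, a replicate block and leaving out each library were tried. Leaving out both number 2 libraries, the term for W-linked reads (a summed W-linked normalized count of at least 100), DESeq2 without each library and the *PTH2R*/*PTHLH* ratio in place of *PTH1R*/*PTHLH* were chosen after seeing the data. A gene of the list of RUNX partners is not reported here and was left out of the counts and median of that list.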

Additional observations from a re-analysis of the deposited data

How the results depend on the processing

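*RUNX2* was higher in phalange under every alternative run (log2FC −2.68 to −2.36), but its call by limma was not kept in all. With the replicate number as a block the log2FC was −2.50 with an adjusted p of 0.0674, 1 gene was called higher in phalange and 0 members were called. Same-numbered libraries deviated together by r = 0.19, 0.08 and −0.02, and the other pairs by −0.14 to 0.07. Both number 1 libraries had almost no W-linked reads, and both number 2 libraries were lowest in red blood cell markers of their tissue. In its RT-qPCR figure the study joined samples taken from the same embryo, but it does not say this of the RNA-seq libraries. Whether the numbers pair the samples was thus not settled, and the fit without a block is only one of the possible readings. Leaving out 1 library at a time gave −2.68 to −2.41 for *RUNX2*, 0 to 5 genes called higher in interzone, 0 to 4 in phalange and 0 to 1 members called in phalange. Without both number 2 libraries 0 genes and 0 members were called in phalange, and *RUNX2* was at −2.36. Counts of calls moved with the settings. A pseudocount of 10 gave 1 gene in interzone and 5 in phalange, a minimum mean of 50 gave 2 and 5, edgeR gave 1 in phalange, DESeq2 gave 99 and 47 with the same filter and 116 and 61 without a filter, and 1 member in interzone in both. Directions changed for genes that were not called: *CBFB* (0.12 without interzone 1, 0.13 without phalange 3, −0.35 at the lowest), *MEF2C* (−0.35 without phalange 3, 1.91 without interzone 2, 2.61 without both number 2 libraries), *DLX5* (0.44 without both number 2 libraries) and log2 *RUNX2*/*RUNX1* (0.53 with 0.1 reads added, and −2.18 to 0.85 when leaving out 1 library). The cause of these changes was not tested, and some of these fits also had fewer libraries. The *PTH1R*/*PTHLH* ratio could not be computed. With 3 libraries a tissue, exact tests cannot go below 0.1, and depth limits *COL10A1*, *DLX6* and *RUNX1*.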
